A study of Mus musculus with 2 samples.

Results

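Alveolar type 2 (AT2) cells with few early-response transcripts were examined, that is, those AT2 cells of the lung in which the summed RNA of Jun, Fos, Fosb, Atf3, Egr1 and Ier2 was lowest. They were selected on that measured sum. The base was every barcode with at least 500 genes, at most 20% mitochondrial UMIs (unique molecular identifiers, 1 per captured RNA molecule), at least 5000 UMIs and at least 10% of its UMIs from Sftpc. The score of a cell was the sum of the 6 genes per 1000000 UMIs of that cell (counts per 1000000, CPM), and the low-score cells were those at or below the 25th percentile over the base of both libraries, 991.41 CPM. They were 3443 of 13772 base cells and of 18938 barcodes in all. The remaining 10329 base cells are called higher-score cells here.

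The study holds 2 single-cell libraries from lungs of male mice, 1 labelled WT and 1 labelled IP-/- (IPKO), the label for mice without the prostaglandin I2 receptor, IP, which Ptgir encodes. Cells were sorted by flow cytometry for EpCAM and against CD31, CD34, CD45, CD24 and Sca-1 on their surface, and RNA was counted from the 3' ends of transcripts. The labels give no injury, treatment, age or strain background, and do not say how many mice were pooled or whether the deletion is limited to a cell type. With 1 library per genotype no difference between the libraries could be tested, and every interval below is a 95% interval of counting error only.

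AT2 cells secrete surfactant, the mixture of lipids and proteins that keeps alveoli open, and can divide and turn into alveolar type 1 (AT1) cells, the thin cells of gas exchange. Early-response genes encode mostly transcription factors of the AP-1 and related families, whose RNA rises within minutes of growth signals, stress or tissue dissociation and is short-lived.

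Ptgir went against the labels in the low-score cells. It had 0 UMIs among 45251891 in the low-score cells labelled WT and 37 UMIs among 19383911 (1.91 CPM of those cells) in those labelled IPKO. With the 0 set at a floor of 3 counts over the group, the log2 ratio was 4.85, IPKO over WT as labelled, the direction of every ratio below. Its interval, taken without the floor, began at 4.48 and had no upper end. In the higher-score cells the counts were 0 and 276. Ptgir spans bases 16906490 to 16910905 of chromosome 7 in GRCm38, on the plus strand. The labels do not say which part of it was deleted, and RNA counted from its 3' end is no check of a deletion elsewhere in the gene. Exchanged labels would give the same counts, and would turn the sign of every ratio below; the 2 readings cannot be told apart here. Groups are therefore named by their labels throughout.

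The libraries held 127287281 UMIs in 8924 barcodes labelled WT and 137471506 UMIs in 10014 barcodes labelled IPKO. Of these barcodes 71.6% and 73.7% were base cells. The libraries shared 79 barcode sequences, 12 among base cells and 0 among low-score cells. Low-score cells had medians of 18885 UMIs labelled WT and 17553 labelled IPKO, against 18024 and 17061 in the higher-score cells. Mitochondrial RNA took a median of 5.34% of their UMIs labelled WT and 3.98% labelled IPKO.

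The libraries divided unequally between low and higher scores. Low-score cells were 2348 of 6392 base cells labelled WT (36.7%, exact Clopper-Pearson interval 35.55% to 37.9%) and 1095 of 7380 labelled IPKO (14.8%, 14.0% to 15.7%). Because the rule used the score, this split describes the choice. Just inside the threshold stood a cell labelled IPKO at 990.92 and a cell labelled WT at 991.0 CPM, the latter with 24 UMIs of the 6 genes among 24218. Just outside stood a cell labelled WT at 991.54 and a cell labelled IPKO at 991.82. Within the low-score cells the median score was 450 CPM labelled WT and 439 labelled IPKO, and the 6 genes gave medians of 8 and 7 UMIs per cell. A score of 0 was found in 45 cells labelled WT and 17 labelled IPKO.

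**Figure D1:**
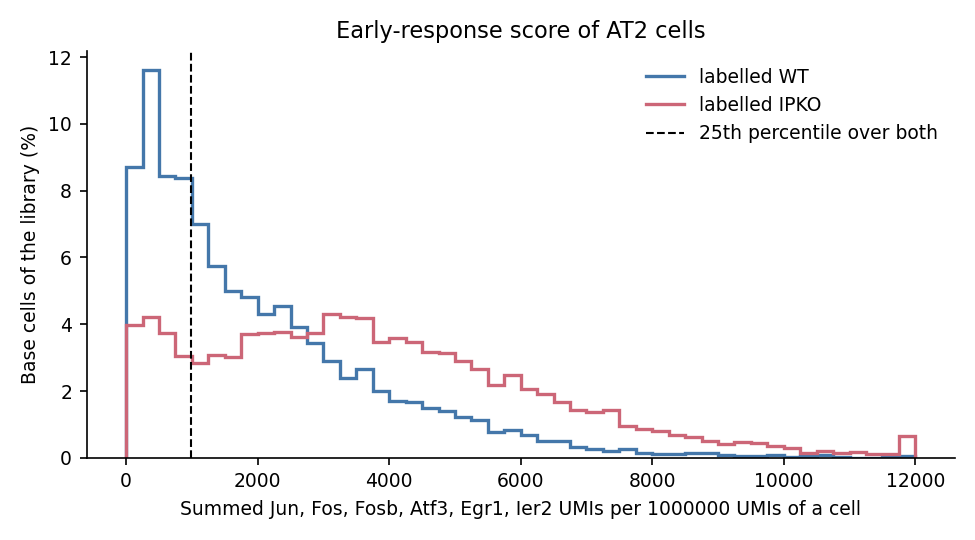
Distribution of the early-response score over the base cells of each library, in bins of 250 CPM; the last bin also holds all higher scores, and the dashed line is the 25th percentile over both libraries. The library labelled WT has 36.7% of its base cells at or left of the line and the library labelled IPKO 14.8%.

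The cells carried the AT2 markers by which they are known. Sftpc, which encodes surfactant protein C and was used in the choice, stood at 218300 and 218800 CPM (WT first, here and below). Sftpb, for surfactant protein B, stood at 10390 and 9524 CPM (log2 ratio -0.13, interval -0.13 to -0.12), and Sftpa1, for surfactant protein A, at 26740 and 24970 CPM (-0.10). Lamp3, a membrane protein of the lamellar bodies in which surfactant is stored, stood at 1622 and 1531 CPM (-0.08). These 4 genes differed by less than 1.5-fold between the libraries. Among cells reduced to 5000 UMIs each by random draws, the 4 surfactant protein genes together gave a median of 1304 UMIs labelled WT (10th to 90th percentile 1024 to 1575) and 1282 labelled IPKO (1037 to 1526).

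Mesenchymal, endothelial, lymphocyte and pan-leukocyte markers gave low sums, while those of the myeloid, club cell and AT1 lists were higher. The 8 AT1 markers summed to 1530 and 1606 CPM. The 11 mesenchymal markers summed to 2.61 and 1.65 CPM, with 1 and 7 of them at 0. The 6 pan-leukocyte markers summed to 0.597 and 12.2 CPM, and the 10 lymphocyte markers found in the files to 21.99 and 47.5 CPM. Part of the latter difference came from few cells: Ccl5, a chemokine of T cells, had 0.133 and 10.6 CPM, from 6 UMIs labelled WT and 206 labelled IPKO, of which 185 lay in 1 cell. Cd79b, also in the lymphocyte list, was spread over many cells, with 977 UMIs in 764 cells labelled WT and 465 in 357 labelled IPKO. The 15 myeloid markers summed to 2794 and 2278 CPM, nearly all of it Lyz1 (2790 and 2269 CPM), a lysozyme gene that mouse AT2 cells also express. The 11 endothelial markers summed to 12.4 and 19.1 CPM and the 9 ciliated cell markers to 100.1 and 148 CPM. Club cell markers summed to 2511 and 1260 CPM and included Scgb1a1, described with the secreted proteins. The part of these markers in the differences given here was not tested. The only alternative left out cells that carried endothelial, mesenchymal, lymphocyte or pan-leukocyte markers.

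The 6 score genes stood at nearly the same levels in both libraries once cells were held at or below the common threshold, which the rule favours and which is given as a description. Jun, a subunit of AP-1, stood at 241 and 245 CPM in the low-score cells (log2 ratio 0.02, -0.03 to 0.07), against 1082 and 1650 CPM in the higher-score cells (0.61). Fosb, another AP-1 subunit, stood at 62.1 and 65.6 CPM (0.08), against 454 and 781 CPM (0.78). The partner gene Fos stood at 91.5 and 70.4 CPM, a ratio of -0.38 (-0.47 to -0.29), against 759 and 833 CPM (0.14). Ier2 had the highest of the 6 ratios, 0.24 (53.7 and 63.3 CPM), and Atf3 and Egr1 had ratios of 0.09 and 0.08. The 6 genes summed to 480 and 477 CPM in the low-score cells and to 2864 and 4215 CPM in the higher-score cells. The higher-score cells of the 2 libraries differ in their scores, and within each of the 3 upper quartiles of the score the ratio of Jun was 0.15, 0.15 and 0.25. Where the lowest 25% were taken within each library instead, the median ratio of the 6 genes was 1.61, so their equality belongs to the common threshold.

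Early-response genes outside the score were also low in these cells. Within each library 15 of 29 measured genes labelled WT, and 20 of 28 labelled IPKO, were at least 1.5-fold lower in the low-score than in the higher-score cells, and 0 were higher, with medians of -0.60 and -0.89 on the log2 scale. Over all genes that averaged 5 CPM or more, 0.668% of 8383 were lower by this rule labelled WT and 1.39% of 8477 labelled IPKO, and 0.0358% and 0.165% were higher, around medians of -0.08 and -0.09. Junb, an AP-1 subunit, stood at 90.3 and 81.9 CPM in the low-score cells against 277 and 363 CPM in the higher-score cells. Dusp1, a phosphatase that switches off MAP kinases, stood at 53.9 and 51.9 CPM against 200 and 255 CPM. Trib1, a pseudokinase gene, stood at 23.8 and 23.3 CPM against 57.7 and 62.5 CPM. The low-score cells of both libraries thus lay below the higher-score cells of both libraries for these 3 genes.

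Between the libraries, these other early-response genes did not follow the higher-score cells. Their median log2 ratio was -0.14 in the low-score cells and 0.15 in the higher-score cells. In the low-score cells 1 of 27 measured genes was at least 1.5-fold higher labelled IPKO, against 1.43% of all measured genes, namely Nr4a1, an orphan nuclear receptor (8.35 and 13.4 CPM, 0.68). Lower labelled IPKO were 4, against 1.76% of all, namely Maff (-1.14), Ier3 (-0.62), Klf4 (-0.61) and Nfkbia, the inhibitor of NF-kB (-0.61). The zinc finger transcription factor gene Klf6 stood at 70.5 and 64.0 CPM in the low-score cells (-0.14) and at 167 and 250 CPM in the higher-score cells (0.58). Zfp36, whose protein marks RNAs for decay, had ratios of -0.18 and 0.53, and the small GTPase gene Rhob had 0.04 and 0.76. The pooled higher-score value mixes libraries with different score distributions: in the 3 upper quartiles of the score the ratios were 0.18, 0.28 and 0.29 for Klf6, 0.29, 0.31 and 0.21 for Zfp36, and 0.46, 0.52 and 0.75 for Rhob. With the lowest 25% of each library the list's median was 0.33, and Klf6 and Zfp36 had 0.46 and 0.53. That cut admits higher scores labelled IPKO than labelled WT.

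For most genes the ratio between the libraries differed by less than 1.5-fold between low-score and higher-score cells. Of 8346 genes that averaged 5 CPM or more in the low-score cells, 266 (3.19%) differed at least 1.5-fold between the libraries, 119 (1.43%) higher and 147 (1.76%) lower labelled IPKO. In the higher-score cells 274 of 8551 (3.2%) did, 133 (1.56%) higher and 141 (1.65%) lower. Of 8304 genes measured in both, 10 had a ratio at least 1.5-fold larger in the low-score cells and 24 a ratio at least 1.5-fold smaller. Both sets of cells come from the same 2 libraries, so the second set is no replicate of the first. The median ratio of all measured genes was 0.03 in the low-score cells. Median-of-ratios scaling left 108 genes higher and 165 lower and TMM scaling 102 and 173. Each count of called list genes in the low-score cells is to be read beside the shares of 1.43% higher and 1.76% lower.

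**Figure D2:**
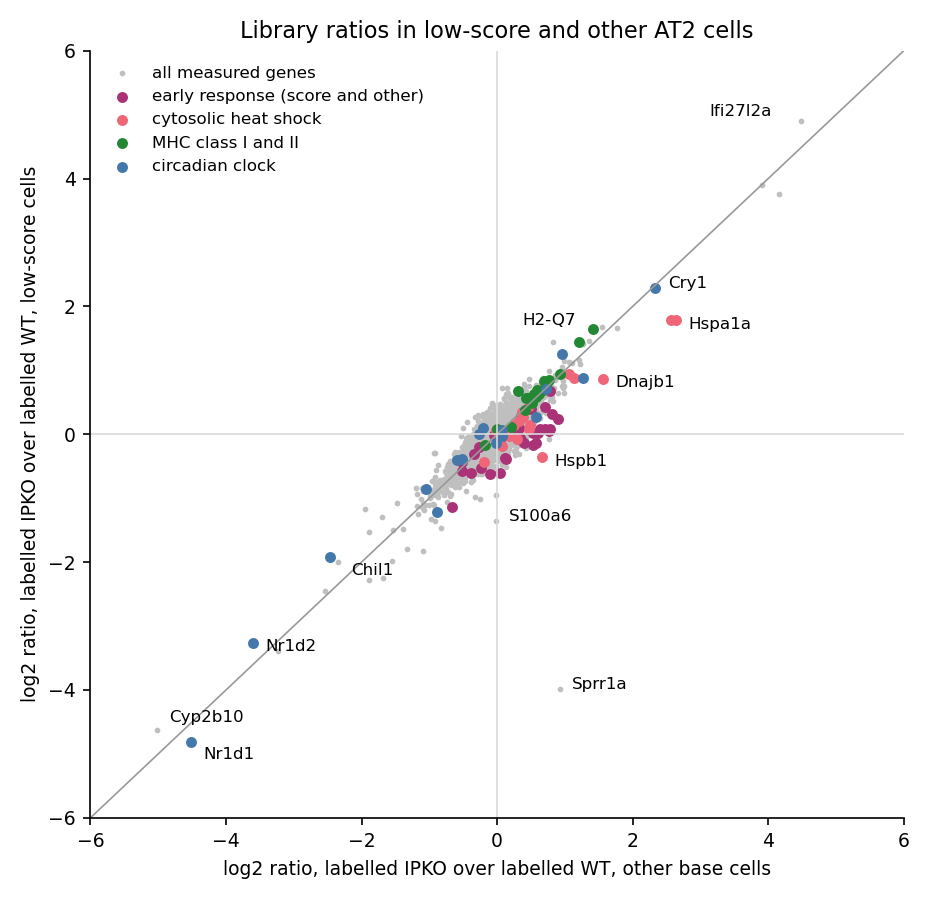
Log2 ratio between the libraries (IPKO over WT as labelled) for each gene averaging 5 CPM or more, in higher-score base cells (horizontal) and low-score cells (vertical); the grey diagonal marks equal ratios. Genes of antigen presentation and of the clock lie along the diagonal, while most early-response genes and the chaperone genes Hspa1a, Dnajb1 and Hspb1 lie below it.

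Antigen presentation genes were higher labelled IPKO in the low-score cells. Of the 6 measured genes of MHC class II, which presents peptides from outside the cell, 4 were higher and 0 lower, with a median log2 ratio of 0.67 against 0.03 over all measured genes. Cd74, the invariant chain that guides class II molecules, stood at 1600 and 2741 CPM (0.78, 0.76 to 0.79). The class II chains H2-Aa, H2-Ab1 and H2-Eb1 had ratios of 0.64, 0.70 and 0.73. H2-DMa and H2-DMb1, which load peptides onto class II molecules, had 0.58 and 0.49 and missed the rule. The median of the list was 0.68 in the higher-score cells. In cells reduced to 5000 UMIs, class II genes gave a median of 11 UMIs labelled WT (10th to 90th percentile 2 to 25) and 19 labelled IPKO (8 to 35.6), so the libraries overlapped cell by cell.

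MHC class I and peptide loading genes had a median ratio of 0.68 in the low-score cells and 0.55 in the higher-score cells. In the low-score cells 9 of 15 were higher labelled IPKO and 0 lower. B2m, the light chain of class I molecules, stood at 177 and 314 CPM (0.83, 0.70 in higher-score cells). The class I genes H2-Q7 (1.64), H2-Q6 (1.44) and H2-T23 (0.95) and the immunoproteasome genes Psmb9 (0.85) and Psmb8 (0.70) were among the 9. H2-Q6 and H2-Q7 are near-identical copies, so the split of reads between them is uncertain. Tapbp and Erap1, which load and trim class I peptides, had ratios of 0.08 and -0.16.

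Of 11 measured interferon-induced genes, 4 were higher labelled IPKO and 0 lower, with a median of 0.45. Ifi27l2a, on chromosome 12 from 103442167 to 103443680 (minus strand), had 5.17 and 155 CPM (4.91, 4.72 to 5.11, and 4.49 in higher-score cells). Its ratio was the highest among genes averaging 20 CPM or more, leaving out ribosomal protein, mitochondrial and haemoglobin genes and unnamed gene models. Its UMIs came from 132 cells labelled WT and 554 labelled IPKO. The other 3 were Ifitm3 (1.66), Ifi27 (1.05) and Bst2, which tethers virus particles to the cell (0.81). Irf1, an interferon-induced transcription factor, had a ratio of -0.28, and Isg20 one of -0.27. Not all interferon-induced genes measured were thus higher labelled IPKO.

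Heat shock genes, which encode chaperones that refold proteins, had a smaller median ratio in the low-score cells than in the higher-score cells, 0.15 against 0.39. In the low-score cells 5 of 21 were higher labelled IPKO and 0 lower, namely the HSP70 genes Hspa1a and Hspa1b, their partners Dnaja1 and Dnajb1, and Hsph1. Hspa1a stood at 44.2 and 152 CPM (1.78, 1.70 to 1.87) in the low-score cells and at 101 and 629 CPM (2.64) in the higher-score cells. Hspa1b stood at 32.9 and 114 CPM (1.79) and at 63.1 and 375 CPM (2.57). Both are near-identical copies, so counts of either may be incomplete. Dnajb1 had ratios of 0.87 and 1.56, and Dnaja1 0.88 and 1.13. Hspb1, a small heat shock protein, was the member whose ratio moved most, from 0.66 in the higher-score cells to -0.36 in the low-score cells (138 and 108 CPM); it was 0.14 at the lowest 50% of the score and 0.10 with a cut per library. Of the 21 genes, 17 had a ratio of smaller size in the low-score than in the higher-score cells. With the lowest 25% of each library the median of the list was 0.34.

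The upstream sequences of the 2 heat shock genes with the highest ratios, and of a clock gene chosen because it holds the motif, are shown to let the motifs that define such genes be read beside their values. They are the 250 bases before the transcript start in RefSeq (GRCm38.p6), 5' to 3' on the gene's strand. Capitals mark a heat shock element (TTCNNGAA or GAANNTTC) in Hspa1a (chromosome 17, 34972157 to 34972406, minus strand) and Hspa1b (chromosome 17, 34959239 to 34959488, minus strand), and an E-box (CACGTG) in Cry1 (chromosome 10, 85185055 to 85185304, minus strand).
Hspa1a: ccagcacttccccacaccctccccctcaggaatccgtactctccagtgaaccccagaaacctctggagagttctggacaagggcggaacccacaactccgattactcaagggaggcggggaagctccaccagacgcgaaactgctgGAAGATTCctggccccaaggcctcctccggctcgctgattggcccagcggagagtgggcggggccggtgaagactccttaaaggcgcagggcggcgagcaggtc
Hspa1b: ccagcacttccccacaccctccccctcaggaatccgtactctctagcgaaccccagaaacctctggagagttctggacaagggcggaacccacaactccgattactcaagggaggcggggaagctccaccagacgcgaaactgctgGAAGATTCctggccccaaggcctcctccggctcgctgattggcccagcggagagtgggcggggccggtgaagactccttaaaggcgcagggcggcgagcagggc
Cry1: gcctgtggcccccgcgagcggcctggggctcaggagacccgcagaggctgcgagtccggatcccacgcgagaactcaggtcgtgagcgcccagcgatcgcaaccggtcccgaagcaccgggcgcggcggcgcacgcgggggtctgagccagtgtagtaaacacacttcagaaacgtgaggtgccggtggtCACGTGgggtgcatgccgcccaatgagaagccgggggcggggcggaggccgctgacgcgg
The element lay 104 to 97 bases before the start in both chaperone genes, and the E-box 60 to 55 bases before the start of Cry1. On both strands, a heat shock element was found in 12.8% of all 32851 windows of this length in the table and an E-box in 6.02%. Of the heat shock list 8 of the 16 genes with a window held the element, and of the clock list 5 of 17 held an E-box. A gene with several windows counted if any of them held the motif. These counts of genes are thus not in the same unit as the shares of windows. Windows of Hspe1 and Hspd1, both counted, overlap. The clock genes with the lowest ratios, Nr1d1 and Nr1d2, held 0 in this window. Per1 and Tef, which were also lower labelled IPKO, held an E-box. Arntl and Npas2, which were higher, held 0. A cAMP response element (TGACGTCA) was in 1.55% of windows and in 0 of the 4 score genes with a window. Such matches describe letters, not bound sites.

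Clock genes differed in both directions in low-score and higher-score cells. Of 17 measured in the low-score cells, 4 were higher and 5 lower labelled IPKO, and the median of the list was -0.03, against -0.21 in the higher-score cells. Nr1d1, a repressor of the clock on chromosome 11 from 98767932 to 98775333 (minus strand), stood at 64.0 and 2.27 CPM (-4.82, -5.28 to -4.39, and -4.51 in higher-score cells). Its relative Nr1d2 stood at 35.2 and 3.66 CPM (-3.26 and -3.60). Dbp (-1.92) and Tef (-0.85), output factors of the clock, and Per1 (-1.21) were also lower. Cry1, a repressor of the CLOCK complex, stood at 6.03 and 29.4 CPM (2.29 and 2.33), and Arntl (0.72), Npas2 (0.87) and Per2 (1.26) were higher. From the lowest to the highest quartile of the score the ratio of Per2 was 1.26, 0.96, 0.96 and 0.51. The labels do not give the hour of cell collection. Of the glucocorticoid-responsive and metallothionein genes, 1 of 10 was higher and 4 lower, among them Klf9 at 136 and 70.6 CPM (-0.94).

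Secreted proteins of defence included abundant transcripts that differed between the libraries. Chil1, a chitinase-like protein of AT2 cells on chromosome 1 from 134182176 to 134190181 (plus strand), stood at 2561 and 641 CPM (-1.998, -2.02 to -1.97), and at 2470 and 487 CPM in the higher-score cells (-2.34). In cells reduced to 5000 UMIs its median was 12 UMIs labelled WT (6 to 20) and 2 labelled IPKO (0 to 8). Scgb1a1, the secretoglobin best known from club cells, stood at 1429 and 362 CPM (-1.98, and -1.55 in higher-score cells). Its per-cell medians were 2 and 1 UMIs, with 90th percentiles of 19 and 5. Pglyrp1, a protein that binds bacterial walls, stood at 1.75 and 23.7 CPM (3.76), and Spink5, a protease inhibitor, at 62.3 and 26.2 CPM (-1.25). Of the 16 measured genes 1 was higher and 3 lower.

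Other genes were named because their ratios in the low-score cells were among the highest or lowest, so their size there describes the choice. Those given here had the same direction in the higher-score cells. S100a6, chosen the same way, had -0.01 there and is described with the transitional-state genes. Cyp2b10, a cytochrome P450 of foreign-compound metabolism, stood at 130 and 5.26 CPM (-4.63, -4.92 to -4.34, and -5.02 in higher-score cells). It lies 8.99 Mb from Ptgir on chromosome 7 (25897620 to 25926624), and Pglyrp1 lies 1.96 Mb from Ptgir. Other genes on that chromosome had small ratios in the low-score cells. They include Fosb, used in the choice, at 2.39 Mb (0.08), Relb at 2.7 Mb (0.32) and Cyp2f2 at 10.2 Mb (0.45). The part of position in these ratios was not tested. Rgcc, a regulator of the cell cycle, had a ratio of -2.29, the kinase gene Pim3 -1.80, the chitinase gene Chia1 -1.46 (-0.82 in higher-score cells), and the interleukin 11 receptor gene Il11ra1 -1.14. PISD, named for the mitochondrial phosphatidylserine decarboxylase, had -1.48, and Ppp1r1b had -1.12. Higher labelled IPKO were the glutathione transferase gene Gsta3 (0.93), the cold-induced RNA-binding protein gene Rbm3 (0.93), the transcription factor gene Sox4 (0.86), Rasl11a (1.10) and Hrct1 (0.99).

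**Figure D3:**
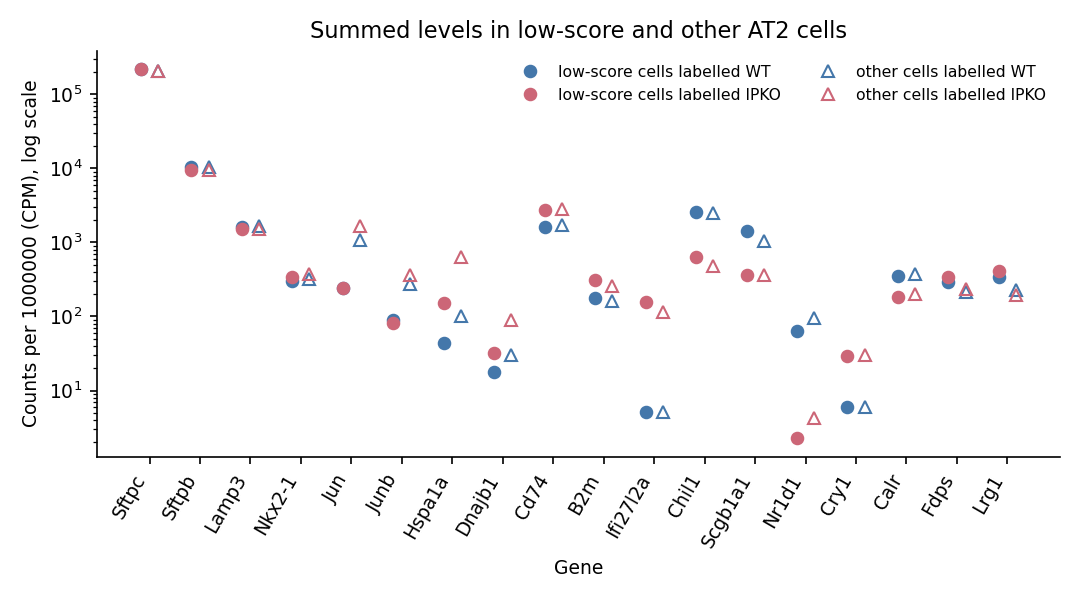
CPM (log axis) of 18 genes in the summed low-score cells (filled circles) and higher-score cells (open triangles), blue for the label WT and red for IPKO, 1 library each, no error bars. Sftpc, Sftpb and Lamp3 nearly coincide, Jun does so only in low-score cells, and Cd74, Chil1, Nr1d1 and Cry1 keep their distance in both.

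Genes of the endoplasmic reticulum, where secreted proteins fold, were lower labelled IPKO, with a median ratio of -0.37 in the low-score cells and -0.31 in the higher-score cells. In the low-score cells 0 of 27 were higher and 7 lower. The chaperone genes Calr (349 and 185 CPM, -0.91) and Hsp90b1 (565 and 346 CPM, -0.71), the stress-induced gene Herpud1 (266 and 124 CPM, -1.11), Sdf2l1 (-1.49), Hyou1 (-0.80), Creld2 (-0.69) and Trib3 (-0.76) made up the 7. Syvn1, an enzyme of protein disposal at this membrane, had -0.01. The 13 mitochondrially encoded genes had a median of -0.47 in the low-score cells, with 4 lower (mt-Nd2, mt-Nd3, mt-Nd4l and mt-Nd6), while the 27 nuclear genes of oxidative phosphorylation had a median of 0.05 and 0 called.

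The rest of the AT2 programme differed less between the libraries. Of 20 AT2 identity genes 2 were lower labelled IPKO, against 1.76% of all measured genes, and 0 higher: Chil1 and Mfsd2a, a transporter of lysophospholipids (48.6 and 23.1 CPM, -1.07). Of 14 AT2 lineage transcription factor genes 0 were higher and 2 lower, Tfcp2l1 (-0.60) and Elf3 (-0.60), both at the edge of the rule; over the alternatives they reached -0.47 and -0.51, and in the higher-score cells 0 of the 14 were lower. In the low-score cells Foxa2 and Elf5 had ratios of 0.28 and 0.43. Of 28 genes of fatty acid, sterol and phospholipid synthesis 1 was lower, the lipid droplet coat gene Plin2 (-0.63), and Hmgcs1 of the sterol pathway had 0.49. The 19 lysosome genes and the 19 NRF2 and glutathione genes had medians of -0.03 and -0.06, with 0 called.

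The series title ties Jun and p53 together. Jun was used in the choice of cells, so its ratio of 0.02 is a description only, and it was 1.22 with a cut per library. Trp53, which encodes p53, stood at 9.59 and 8.62 CPM (-0.16, -0.42 to 0.11). Its targets Cdkn1a, an inhibitor of the cell cycle, and Mdm2, its own inhibitor, had ratios of -0.11 (-0.24 to 0.02) and 0.01 (-0.16 to 0.19). Of 18 measured genes of the p53 list 1 was higher, Plk2 (0.78), and 1 lower, Sesn2 (-0.83). Over all measured genes 1.43% were higher and 1.76% lower. Of 7 measured prostanoid genes 0 were called: Ptgs2, the inducible enzyme of prostaglandin synthesis, had -0.32. Of 15 genes of the cAMP and CREB response, the pathway into which the receptor signals, 3 were higher (Nr4a1, Per2, Areg) and 3 lower (Gem, Per1, Ppargc1a). Gem, a small GTPase gene, stood at 29.4 and 8.31 CPM (-1.82).

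Krt8, a keratin that rises when AT2 cells turn toward AT1 cells, stood at 109 and 115 CPM in the low-score cells (0.07, 0.00 to 0.15). Of 17 transitional-state genes 1 was higher labelled IPKO, the growth factor gene Areg (15.9 and 24.0 CPM, 0.59), and 2 were lower, S100a6 (-1.36) and Sprr1a (-3.99). In the higher-score cells these ratios were 0.66, -0.01 and 0.93, so the lower level of S100a6 and Sprr1a was not found there. All 3 genes rested on few cells. The 5 highest cells held 41.6% of the 1934 S100a6 UMIs labelled WT, and 65.3% of the 888 Sprr1a UMIs. For Areg they held 27.3% of the 465 UMIs labelled IPKO, and its ratio was -0.081 at the lowest 10% of the score. Without the members highest in transitional-state genes (502 cells labelled WT and 262 labelled IPKO, an alternative chosen after seeing the data) the S100a6 ratio was 0.44. Of 14 AT1 differentiation genes 2 were higher and 0 lower, Hopx (16.3 and 25.5 CPM, 0.64) and Akap5 (1.44).

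By the 1.5-fold rule 3 genes labelled WT and 14 labelled IPKO stood higher in the low-score than in the higher-score cells. The genes of sterol synthesis named here stayed under 1.5-fold, but were among those with the highest ratio in the library where it was smaller. Pmvk, Fdps and Mvd, enzymes of the mevalonate pathway, were higher by 0.47, 0.41 and 0.39 on the log2 scale labelled WT and by 0.56, 0.55 and 0.42 labelled IPKO. Aacs, which activates acetoacetate for lipid synthesis, was higher by 0.33 and 0.37. Fdps stood at 289 and 344 CPM in the low-score cells and at 217 and 234 CPM in the higher-score cells. The whole list of 28 had medians of 0.05 and 0.13. By the rule 0 of its genes were higher in either library, while 0 labelled WT and 1 labelled IPKO were lower. Lrg1, a secreted glycoprotein, stood at 338 and 413 CPM against 231 and 193 CPM, which gave a ratio between the libraries of 0.29 in the low-score cells and -0.26 in the higher-score cells. The mucosal chemokine gene Cxcl17 had 0.31 and -0.29 likewise. With a cut per library both turned in sign in the low-score cells, to -0.09 for Lrg1 and -0.06 for Cxcl17.

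**Figure D4:**
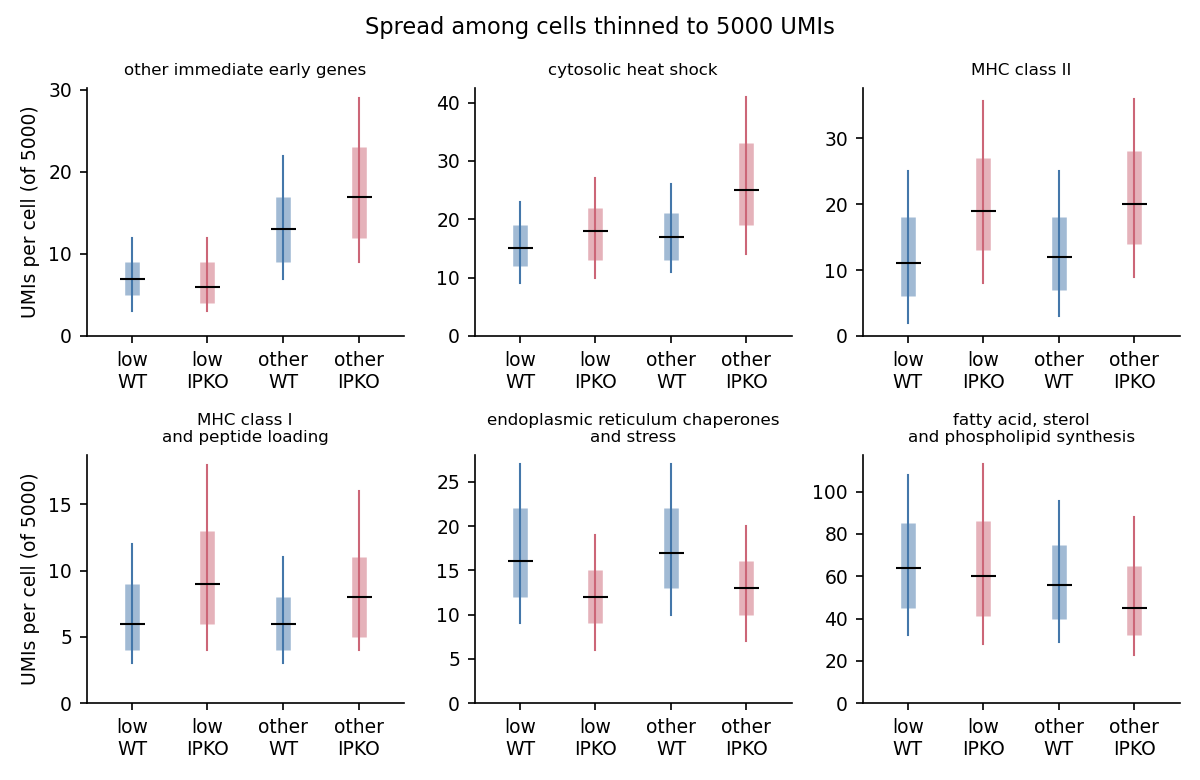
UMIs per cell of 6 gene lists after reducing each cell to 5000 UMIs, in low-score and higher-score (other) cells of each library; black dashes are medians, thick bars the 25th to 75th and thin lines the 10th to 90th percentiles of cells. MHC class II and endoplasmic reticulum genes differ between the libraries in both sets of cells, with medians of 11 and 19 UMIs for class II in the low-score cells.

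The library differences were followed over the 4 quartiles of the score, a division chosen after seeing the data, in which the low-score cells are the lowest. The median ratio of MHC class II was 0.67, 0.66, 0.73 and 0.66 from the lowest to the highest quartile, and that of mitochondrially encoded genes -0.47, -0.46, -0.48 and -0.46. Heat shock genes had 0.15, 0.36, 0.40 and 0.42, and MHC class I genes 0.68, 0.56, 0.53 and 0.49. Early-response genes outside the score had -0.14, 0.11, 0.08 and 0.07. Inside the low-score cells, 5 strips of 5% of the base each gave ratios of Nr1d1 between -5.50 and -4.18, of Chil1 between -2.12 and -1.87, of Cd74 between 0.67 and 0.91 and of Hspa1a between 1.61 and 1.95. In the lowest strip the median score was 126 CPM in 454 cells labelled WT and 143 in 235 cells labelled IPKO.

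**Figure D5:**
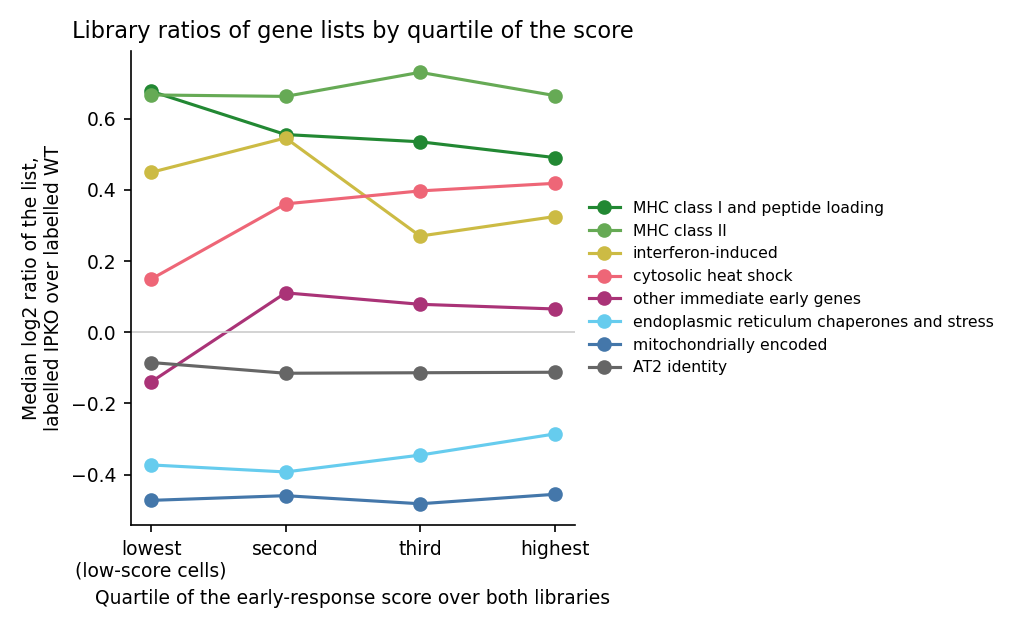
Median log2 ratio between the libraries (IPKO over WT as labelled) for 8 gene lists in each quartile of the early-response score, the lowest quartile being the low-score cells. MHC class II and mitochondrially encoded genes stay level at 0.66 to 0.73 and -0.48 to -0.46, while heat shock genes are at 0.15 in the lowest quartile and 0.42 in the highest.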

How the data were processed

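Single-cell RNA of sorted lung cells was analysed in 2 libraries, 1 per genotype label. The deposited matrices give whole UMI counts for each gene in each called barcode. Both the submitters' processing notes and, per the file headers, the matrices name Cell Ranger 4.0.0, and the notes name GRCm38 (mm10). No source used here gives the annotation release. Reads that match several genes may be missing from such counts. Counts were summed over the chosen cells of each library (Python 3.11.15, numpy 2.4.6, scipy 1.17.1, pandas 2.3.3) and given as counts per 1000000 (CPM). Log2 ratios have exact conditional binomial 95% intervals, checked on simulated data; cells vary by more than counting error, so these are too narrow for cells or mice. A gene counted as measured at a mean of 5 CPM and as called at 1.5-fold. A list is given by the median of its measured genes. Barcodes were removed for under 500 genes (1911 labelled WT, 1682 labelled IPKO), then mitochondrial share (268, 260), then under 5000 UMIs (182, 355), then Sftpc share (171, 337). No doublet caller was used. No test between groups was possible.

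The members and the 39 gene lists were chosen with earlier results of these data known. The text names Ptgir, Trp53, Cdkn1a, Mdm2, Krt8, the score genes and 4 AT2 markers; the 12 highest and 12 lowest ratios among genes averaging 20 CPM or more, except ribosomal protein, mitochondrial and haemoglobin genes and gene models without a name; the 2 highest and 2 lowest of each list; and the 8 genes each way that differed most between low-score and higher-score cells, in their library ratio or within both libraries. Other list members that passed 1.5-fold were named after their values were seen. Alternatives covered the score cut, cell filters, scaling (median of ratios, TMM from edgeR 4.0.16), thinning and thresholds. Gene positions come from GENCODE vM21 (GRCm38) by gene ID.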

Additional observations from a re-analysis of the deposited data

How the results depend on the processing

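The share of base cells counted as low-score followed the score cut by construction: 14.5% labelled WT and 6.08% labelled IPKO at the lowest 10%, 67.8% and 34.6% at the lowest 50%, 25% in each with a cut per library, and 40.6% and 17.2% with the score on cells thinned to 5000 UMIs. Genes at least 1.5-fold higher labelled IPKO numbered 119, and 190 at the lowest 10% (fewer cells), 182 without mitochondrial and the 20 most abundant genes, 218 on thinned sums, 44 at a mean of at least 20 CPM, 336 at 1 CPM and 22 at 2-fold. Genes lower numbered 147, and 69 at 20 CPM, 294 at 1 CPM and 39 at 2-fold. Areg changed sign at the lowest 10% (-0.081) and Sprr1a at the lowest 50% (0.44); S100a6 changed sign without the members highest in transitional-state genes (0.44). Counting also genes under 1.5-fold, 30 of 158 named genes changed sign in some alternative, 19 of them with a cut per library, among these Fos (1.36), Hspb1 (0.10), Junb (0.70) and Ptgs2 (0.32). The difference of the score genes' median between low-score and higher-score cells changed sign at the lowest 50% (0.040) and with a cut per library (0.59). The cut per library admitted scores up to 628 CPM labelled WT and up to 1826 CPM labelled IPKO, so its score gene ratios describe the choice. The cause at the lowest 50% was not tested. Leaving out cells with other types' markers gave 119 higher and 151 lower, and leaving out the 8% of cells with the most UMIs gave 127 and 151. Over all 17 alternatives run on it, the median ratio lay between 0.61 and 0.78 for MHC class II, between 0.10 and 0.34 for heat shock, between -0.42 and -0.34 for endoplasmic reticulum genes and between -0.19 and 0.33 for early-response genes outside the score. No paired analysis was possible because there is 1 library per genotype. Depth limits low genes most in the library labelled IPKO, whose low-score cells hold 19383911 UMIs.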

Other observations

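EGF receptor ligands and receptors, Wnt genes and cell cycle genes in the low-score cells were not described above. Of 8 measured genes of the EGF receptor list 1 was higher labelled IPKO, Areg, and 1 lower, Errfi1, a feedback inhibitor of the receptor (360 and 224 CPM, -0.68). Of 11 Wnt genes 0 were called; Rnf43, which removes Wnt receptors, had a ratio of 0.54 and Nkd1, a feedback inhibitor, -0.37. Of 5 measured S and G2/M phase genes 0 were called, and Pcna stood at 18.5 and 21.5 CPM (0.22). Of 12 genes of foreign-compound metabolism 2 were higher and 2 lower: Ces1d, a carboxylesterase, stood at 343 and 553 CPM (0.69) and Fmo2, a monooxygenase, at 18.9 and 10.2 CPM (-0.89). Ptges, a prostaglandin E synthase, had ratios of -0.29 in the low-score cells and -0.92 in the higher-score cells. Sfn, a 14-3-3 protein gene, had -0.07 and 0.77; 39.95% of its UMIs labelled WT lay in 23 low-score cells, and without the members highest in transitional-state genes its ratio was 0.56.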
